A study of Homo sapiens with 6 samples.

Results

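Fatty acid synthesis, elongation and desaturation is represented here by 10 genes fixed by name: ACLY, ACACA, FASN, SCD, SCD5, FADS1, FADS2, ELOVL5, ELOVL6 and ACSS2. All 10 were found by symbol among the 38557 listed genes, and all 10 were among the 16107 genes that passed the filter on low counts. They were measured by RNA sequencing in 6 libraries of hiPSC-derived cardiomyocytes, heart muscle cells made in culture from the human induced pluripotent line WTC11, labelled WT in both groups. One group of 3 cultures was kept in RPMI with the supplement B27, and the other group of 3 in DMEM with added fatty acids, each numbered as biological replicates 1 to 3. The labels give neither the fatty acids used, their dose, the glucose content nor the time in medium. The cultures are from 1 line, and nothing in the labels says whether the replicates were separate differentiations, so p values measure the spread between these cultures only. The question for these genes was whether their transcripts differ between these media. The base medium and its supplement changed together, so effects of the base, of B27 and of the fatty acids cannot be told apart.

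As background, the pathway starts from cytosolic acetyl-CoA. ACLY makes it from citrate and ACSS2 makes it from acetate, ACACA (acetyl-CoA carboxylase 1) turns it into malonyl-CoA, and FASN builds palmitate from these units. ELOVL6 lengthens saturated and monounsaturated chains, ELOVL5 lengthens polyunsaturated ones, SCD and SCD5 place the first double bond, and FADS2 and FADS1 are the delta-6 and delta-5 desaturases of polyunsaturated fatty acids. Most of these genes are known targets of SREBP transcription factors, which are processed when membrane sterols are low and whose SREBP-1c form is restrained by polyunsaturated fatty acids. The heart takes up most of its fatty acids from the circulation and makes few, and its carboxylase activity is best known for malonyl-CoA as a brake on mitochondrial fatty acid entry.

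Start-site sequences from RefSeq (GRCh38.p14) were held for 9 of the 10 genes, as windows from 250 bases before to 50 bases after a start, 14 windows in all. The 5′ to 3′ stretches below lie before the start and in no exon of GENCODE release 29. SCD and SCD5 are shown because they carry out the same reaction and had different profiles across libraries, ACLY and ACSS2 because they supply the same substrate, and ELOVL6 because it had the library profile of most members without the motif marked in the others. Capitals mark CCAAT on either strand (ATTGG when it is on the other strand), the core of the element bound by NF-Y, a factor known to act with SREBPs at lipogenic promoters.
SCD, chr10:100346983-100347123, plus strand, upstream of the gene: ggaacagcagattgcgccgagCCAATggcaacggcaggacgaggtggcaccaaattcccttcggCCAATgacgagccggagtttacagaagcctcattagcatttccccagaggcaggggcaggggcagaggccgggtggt
SCD5, chr4:82798858-82799046, minus strand, upstream of the gene: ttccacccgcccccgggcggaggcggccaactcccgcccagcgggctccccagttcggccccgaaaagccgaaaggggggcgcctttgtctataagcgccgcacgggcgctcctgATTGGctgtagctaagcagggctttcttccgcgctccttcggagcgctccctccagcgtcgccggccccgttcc
ACLY, chr17:41919023-41919201, minus strand, in an intron of a longer ACLY transcript: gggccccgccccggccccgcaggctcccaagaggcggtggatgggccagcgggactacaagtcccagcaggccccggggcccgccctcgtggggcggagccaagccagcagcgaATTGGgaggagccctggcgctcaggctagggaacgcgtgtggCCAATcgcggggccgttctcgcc
ACSS2, chr20:34874739-34874988, plus strand, in an intron of a longer ACSS2 transcript: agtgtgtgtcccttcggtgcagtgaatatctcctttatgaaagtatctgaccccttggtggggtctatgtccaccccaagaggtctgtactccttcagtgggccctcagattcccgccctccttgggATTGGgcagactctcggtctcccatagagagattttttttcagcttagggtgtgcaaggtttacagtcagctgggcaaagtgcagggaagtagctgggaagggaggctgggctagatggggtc
ELOVL6, chr4:110198677-110198865, minus strand, in an intron of a longer ELOVL6 transcript: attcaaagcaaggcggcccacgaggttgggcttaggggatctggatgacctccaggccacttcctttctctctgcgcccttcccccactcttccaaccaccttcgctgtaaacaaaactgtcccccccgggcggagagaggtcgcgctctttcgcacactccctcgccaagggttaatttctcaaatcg

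CCAAT was present in at least 1 window of 7 of the 9 genes (ACLY, ACACA, SCD, SCD5, FADS2, ELOVL5 and ACSS2), against 39.7% of all genes with such windows. By window it was in 9 of 14, against 34.6% of all 35116 windows. The ACLY windows overlap and hold the same CCAAT sites, which count in each. The letters TCACNCC, part of the sterol regulatory element, were in windows of 2 of the 9 (FADS1 and ACSS2), against 18.2% of all genes. The GC box GGGCGG was in windows of 8 of the 9 against 48.3% of all genes, and the E-box CACGTG in 1, ELOVL5, against 8.77%. Both strands were searched, and none of these motifs shares its full run of letters with another. A match is a run of letters and not a bound site. SCD5 carries CCAAT as SCD does, and its counts had a different library profile. ACSS2 has another window, around a start at 34876612, with no CCAAT, and the stretch printed for it belongs to the start that has one.

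The shared feature of the genes was 1 library. In 8 of the 10, DMEM plus fatty acids replicate 1 was the highest of the 6 libraries, a pattern found in 19.5% of all tested genes, and the exceptions were SCD5 and ELOVL5. In that library 5 of the 10 (ACLY, FASN, SCD, FADS1 and FADS2) were at least 2-fold above the mean of the other DMEM libraries, which holds for 3.37% of all tested genes. Replicate 1 exceeded replicate 2, and replicate 2 exceeded replicate 3, in DMEM for 9 of the 10 genes, SCD5 being the exception, against 21.0% of all tested genes. These patterns were noticed in the data and are given as a description. In bulk RNA, fewer cells of a type and less RNA per cell cannot be told apart. Values are CPM, gene counts scaled to a common library size after TMM, edgeR's correction for library composition, unless stated otherwise.

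**Figure D1:**
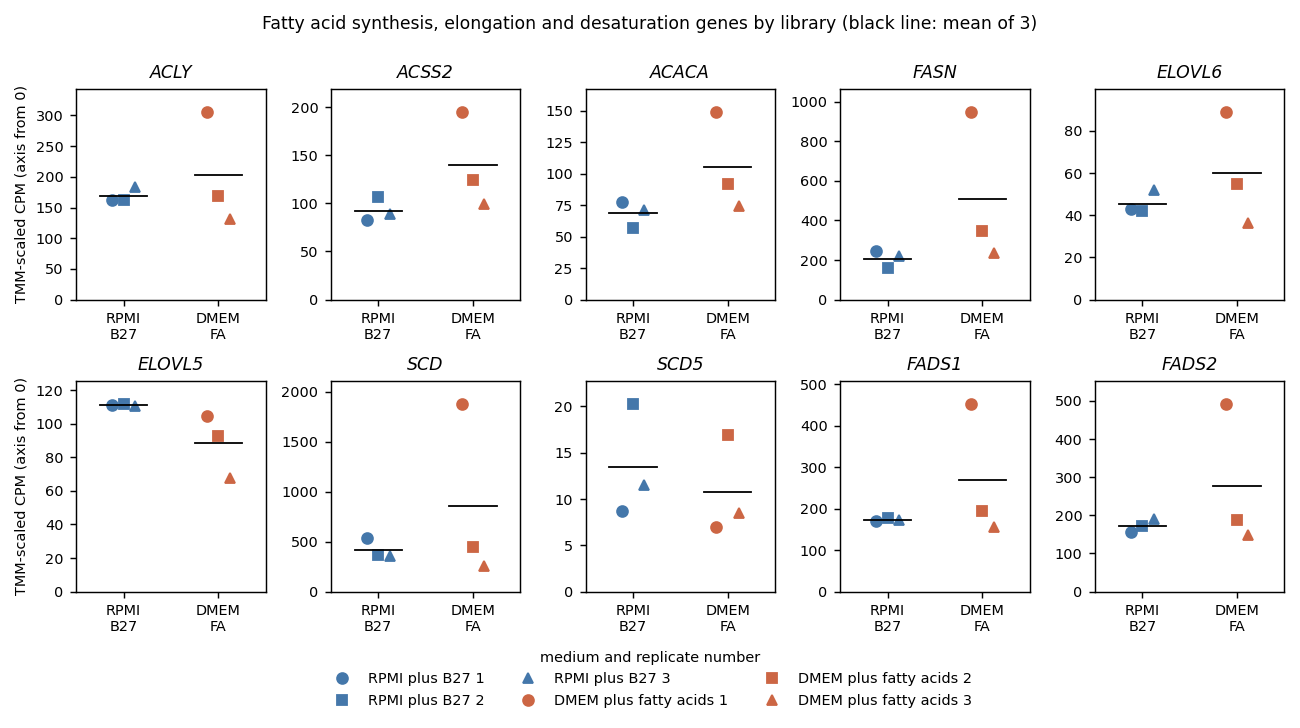
TMM-scaled CPM (vertical axes, each from 0) of the 10 genes in the 6 libraries, with the symbol shape giving the replicate number, the colour the medium and the black line the mean of 3. DMEM plus fatty acids replicate 1 is the highest point in 8 panels, reaching 1879.6 CPM for SCD and 949.6 CPM for FASN.

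No member passed the test between media. Of the 10, 0 had an adjusted p under 0.05 by edgeR's quasi-likelihood test, where 1.36% of tested genes passed. The adjustment was Benjamini-Hochberg over all genes. By DESeq2 0 of the 10 passed, where 1218 of the 16107 tested genes did, the background for each DESeq2 count below. With the replicate number as a block, which treats equal numbers as pairs, 4.78% of all genes passed and again 0 of the 10. An unadjusted p under 0.05 was reached by 3 of the 10 (FASN, ACACA and ACSS2), against 17.7% of all tested genes. The members' fitted log2 fold changes, given throughout as DMEM relative to RPMI, had a median of 0.61 with 8 of 10 above 0. Over all tested genes the median was 0.01 and 51.0% were above 0. Without DMEM plus fatty acids replicate 1 the members' median was -0.02, with 5 of 10 above 0, while that of all genes was 0.00. Scaling by total counts shifted the median of all genes to 0.12 and that of the members to 0.70.

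Both acetyl-CoA supply enzymes were highest in DMEM replicate 1, at 2.04 times (ACLY) and 1.75 times (ACSS2) the mean of the other DMEM libraries. ACLY was at 162.0, 162.1 and 183.1 CPM in RPMI plus B27 (replicates 1 to 3) and at 306.1, 168.4 and 132.0 CPM in DMEM plus fatty acids. The DMEM values thus lay on both sides of the RPMI values, with a log2 fold change of 0.26 ± 0.29 (SE, adjusted p 0.689 by edgeR). ACSS2 was at 82.3, 106.4 and 88.9 CPM in RPMI plus B27 and at 195.3, 124.2 and 99.3 CPM in DMEM plus fatty acids. It was higher in DMEM within each replicate number, and the media overlapped only through RPMI replicate 2 and DMEM replicate 3 (log2 fold change 0.59 ± 0.25, SE, edgeR adjusted p 0.274). Without DMEM replicate 1 the log2 fold changes were -0.17 for ACLY and 0.27 for ACSS2.

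The core synthesis enzymes were higher in DMEM within all 3 replicate numbers. FASN was at 246.0, 157.6 and 218.5 CPM in RPMI plus B27 and at 949.6, 345.4 and 235.1 CPM in DMEM plus fatty acids. DMEM replicates 1 and 2 were above every RPMI library and DMEM replicate 3 fell among them, so the media overlapped. The ratio within replicate numbers 1, 2 and 3 was 3.86, 2.19 and 1.08, and the fitted log2 fold change was 1.30 ± 0.49 (SE, edgeR adjusted p 0.233), the largest of the 10 genes in size. Its smallest adjusted p over 13 other settings was 0.0681, and its value without DMEM replicate 1 was 0.48 ± 0.25.

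ACACA was at 77.4, 56.5 and 71.3 CPM in RPMI plus B27 and at 149.2, 91.9 and 74.3 CPM in DMEM plus fatty acids. Only DMEM replicate 3 lay within the RPMI range (log2 fold change 0.62 ± 0.26, SE, edgeR adjusted p 0.277, and 0.28 without DMEM replicate 1). FASN, ACACA and ACSS2 were the 3 members higher in DMEM in all 3 pairs, against 25.8% of all tested genes, and SCD5 and ELOVL5 were the 2 members lower in all 3 pairs, against 24.0%.

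SCD, the stearoyl-CoA desaturase, had the largest spread. Its level was 540.2, 362.3 and 353.9 CPM in RPMI plus B27 and 1879.6, 441.9 and 255.0 CPM in DMEM plus fatty acids. DMEM replicate 1 was 5.39 times the mean of the other DMEM libraries, DMEM replicate 2 lay inside the RPMI range and DMEM replicate 3 was the lowest of all 6. The SD in DMEM (888.9 CPM, n = 3) exceeded the mean of 858.8 CPM. The fitted log2 fold change was 1.04 ± 0.68 (SE, edgeR adjusted p 0.468), and -0.27 ± 0.30 without DMEM replicate 1.

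SCD5, the second human stearoyl-CoA desaturase, had low counts and another profile. It was at 8.67, 20.3 and 11.5 CPM in RPMI plus B27 and at 6.98, 16.9 and 8.45 CPM in DMEM plus fatty acids. Replicate 2 was highest and replicate 1 lowest in both media, so the order of the replicate numbers was the same in both. Its log2 fold change was -0.33 ± 0.42 (SE, edgeR adjusted p 0.733), and with the replicate block the SE was 0.15 around -0.34 (edgeR adjusted p 0.227).

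FADS1 and FADS2 lie on opposite strands of chromosome 11 (GRCh38, FADS1 at 61799625 to 61829318 and FADS2 at 61792980 to 61867354 in GENCODE release 29). Their annotated models share 142 exon bases, 1.80% of FADS1's and 2.85% of FADS2's, and the RefSeq start of FADS1 lies 599 and 800 bases beyond the 2 starts of FADS2, so the 5′ ends overlap. FADS1 was at 170.5, 176.8 and 171.9 CPM in RPMI plus B27 and at 453.6, 194.5 and 156.7 CPM in DMEM plus fatty acids. FADS2 was at 155.4, 172.2 and 189.3 CPM in RPMI plus B27 and at 492.9, 188.6 and 147.9 CPM in DMEM plus fatty acids. For both genes DMEM replicate 1 stood far above the other 5 libraries and DMEM replicate 3 was the lowest of all 6. DMEM replicate 2 was just above the RPMI range for FADS1 and inside it for FADS2. Their log2 fold changes of 0.63 ± 0.37 and 0.68 ± 0.42 (SE, edgeR adjusted p 0.417 and 0.442) became 0.02 ± 0.15 and -0.04 ± 0.17 without that library.

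The elongases ELOVL6 and ELOVL5 differed from each other. ELOVL6 was at 42.8, 41.9 and 51.8 CPM in RPMI plus B27 and at 89.1, 54.8 and 36.4 CPM in DMEM plus fatty acids (log2 fold change 0.40 ± 0.30, SE, edgeR adjusted p 0.533). ELOVL5 was at 111.3, 111.9 and 110.4 CPM in RPMI plus B27 and at 104.3, 92.9 and 67.7 CPM in DMEM plus fatty acids. It was the 1 member of 10 whose media did not overlap, against 25.6% of all tested genes, and it was the lower in DMEM. Its log2 fold change of -0.33 ± 0.16 (SE, edgeR adjusted p 0.344) did not pass, and it was -0.47 ± 0.17 without DMEM replicate 1 (edgeR adjusted p 0.298).

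**Figure D2:**
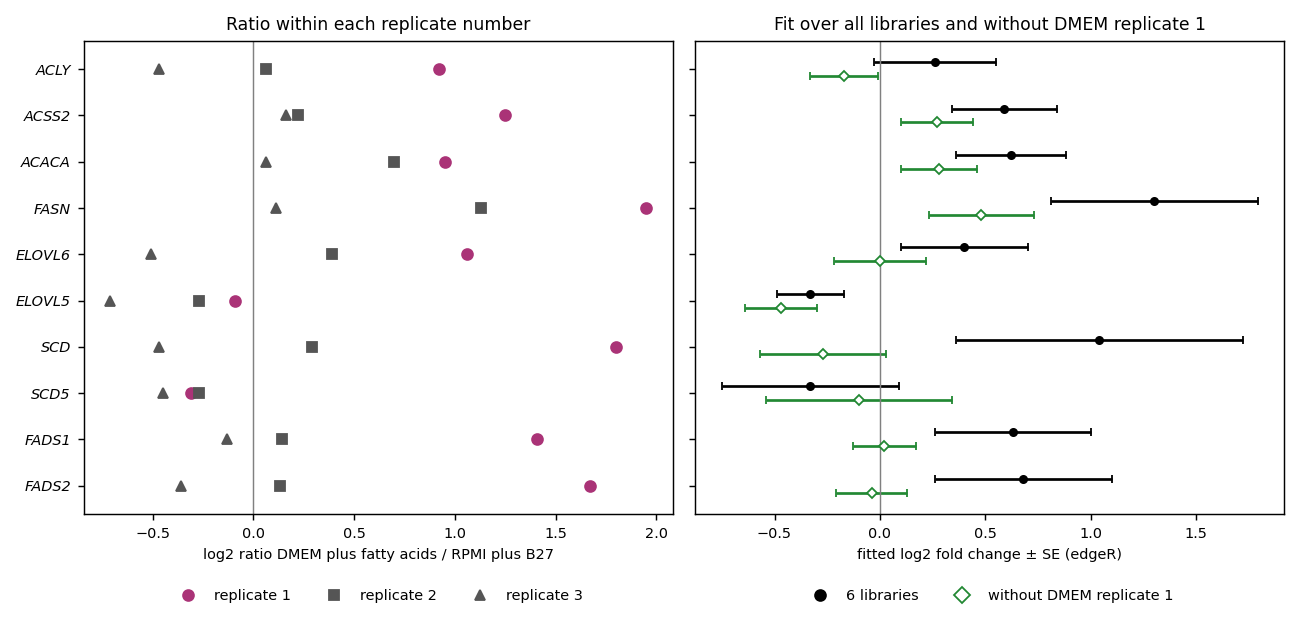
Left, log2 ratio between media (DMEM relative to RPMI) for each gene within replicate numbers 1, 2 and 3. Right, fitted log2 fold change with its standard error over 6 libraries (filled) and without DMEM plus fatty acids replicate 1 (open). Replicate 1 gives the highest ratio for 9 genes, all but SCD5, and the open symbols lie nearer to 0 than the filled ones for 9 genes, all but ELOVL5.

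Levels between genes were compared per kilobase of merged GENCODE exons, which may not be the annotation behind the counts. In RPMI plus B27 SCD led with 78.1 CPM per kilobase, followed by ACLY (38.6), FADS2 (34.6), ELOVL5 (31.9), ACSS2 (29.8), FASN (24.2), FADS1 (21.9), ELOVL6 (6.87), ACACA (6.21) and SCD5 (3.15). Neighbours in this order overlapped across libraries except SCD and ACLY, FADS1 and ELOVL6, and ACACA and SCD5. In DMEM plus fatty acids SCD again led, with 160.2 CPM per kilobase and a range of 47.6 to 350.5, and FASN was next with 59.6 and a range of 27.5 to 110.9. There the neighbours overlapped except ELOVL5 and ACACA, and ELOVL6 and SCD5. SCD and FADS2 have annotated pseudogenes (SCDP1 and FADS2P1), and reads aligned to more than 1 place were set aside, so both could be undercounted.

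Shares within pairs of related enzymes were computed from raw counts in each library, which removes differences in library size. ELOVL6 made up 27.8%, 27.3% and 31.9% of the ELOVL6 and ELOVL5 counts in RPMI plus B27 and 46.1%, 37.1% and 35.0% in DMEM plus fatty acids. The media did not overlap and the share was higher in DMEM in 3 of 3 pairs. The DMEM mean of 39.4% ± 5.9 (SD, n = 3) was 10.4 percentage points above that of RPMI, with an exact two-sided permutation p of 0.1, the smallest that 3 against 3 allows, and 0.4 after adjustment over the 4 shares tested.

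FADS1 made up 47.6% to 52.3% of the FADS1 and FADS2 counts in RPMI plus B27 and 47.9% to 51.5% in DMEM plus fatty acids (exact permutation p 1.0). The balance of these desaturases in DMEM replicate 1, 47.9% with a 95% Wilson interval of 47.3% to 48.6%, was thus inside the RPMI range although both genes were at their highest there. SCD5 made up 1.58% to 5.31% of the SCD and SCD5 counts in RPMI plus B27 and 0.37%, 3.67% and 3.21% in DMEM plus fatty acids (exact permutation p 0.6). ACACB, the carboxylase isoform at the mitochondrial surface, made up 58.7%, 61.2% and 60.7% of the ACACB and ACACA counts in RPMI plus B27 and 46.8%, 53.6% and 62.2% in DMEM plus fatty acids (exact permutation p 0.4). Intervals cover counting error within a library only. The reads carry no molecular identifiers, so copies of a molecule cannot be told apart and the intervals may be too narrow.

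**Figure D3:**
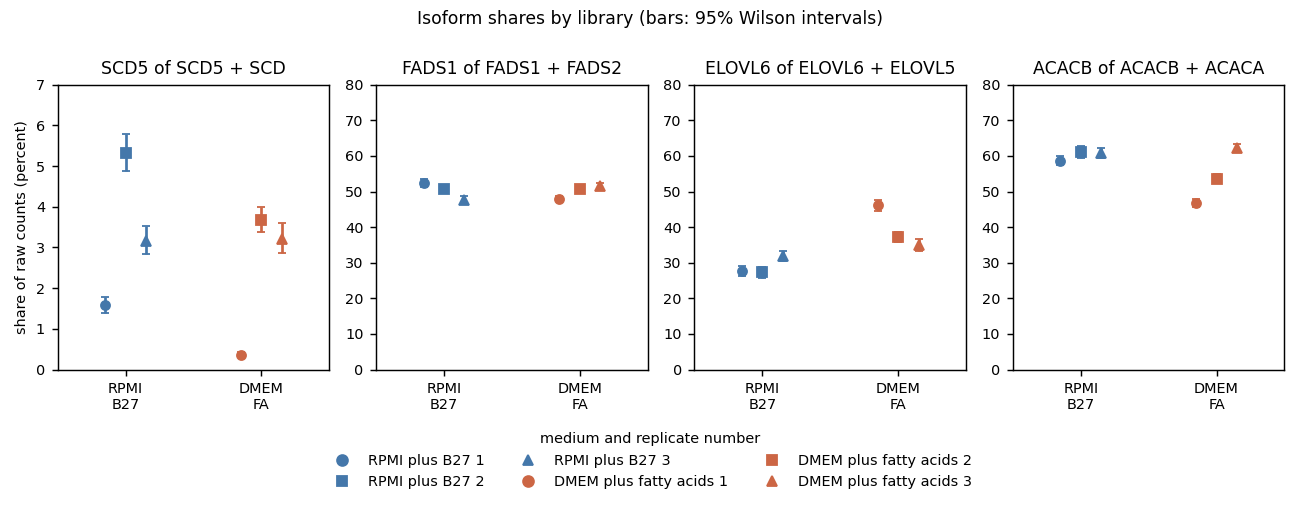
Share of raw counts in percent for 4 pairs of related enzymes in each library, with 95% Wilson intervals and the first vertical axis drawn to a smaller maximum. The ELOVL6 share is the 1 share whose media do not overlap, at 27.3% to 31.9% in RPMI plus B27 and 35.0% to 46.1% in DMEM plus fatty acids.

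The list for carbon and NADPH supply also held genes that do not supply the pathway, among them MLYCD, ACACB, ACSF3, THRSP and MID1IP1. Its median levels, relative to the RPMI mean on the log2 scale, were 0.35, 0.27 and 0.25 in DMEM replicates 1, 2 and 3. Of 13 listed, 11 were tested, with a median log2 fold change of 0.22. Of the 11, 9 were above 0, MLYCD, ACACB and ACSF3 among them, against 51.0% of all tested genes. By edgeR 1 passed, against 1.36%. Between media 5 of 11 did not overlap, MLYCD and ACSF3 among them, against 25.6%. IDH1, the cytosolic NADP-dependent isocitrate dehydrogenase, was at 64.4, 82.2 and 73.7 CPM in RPMI plus B27 and at 181.4, 122.4 and 135.6 CPM in DMEM plus fatty acids. It rose without overlap between media (log2 fold change 1.00 ± 0.18, SE, edgeR adjusted p 0.0492), and over 13 other settings its edgeR or DESeq2 adjusted p ran from 0.000173 to 0.122. It passed in 4 of them and in none that left out a library (0.0961 to 0.122 with 1 left out). MLYCD, which degrades malonyl-CoA, was at 41.4 to 51.7 CPM in RPMI plus B27 and 64.7 to 79.7 CPM in DMEM plus fatty acids. Its media did not overlap (log2 fold change 0.63 ± 0.14, SE, edgeR adjusted p 0.0808), and pairing by replicate number brought the adjusted p to 0.0258 and DESeq2 to 0.00687.

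The NADPH enzymes ME1 and PGD also did not overlap between media, with log2 fold changes of 0.43 ± 0.14 and 0.34 ± 0.12 (SE, edgeR adjusted p 0.179 and 0.205). The citrate carrier SLC25A1 had -0.11 ± 0.15. THRSP, a lipogenic regulator of liver and fat, had 0 counts in each library, which allows up to 0.0967 to 0.129 CPM by library.

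Of 11 other elongation genes 10 were tested, with a median log2 fold change of 0.16. Among these, 2 of 10 did not overlap between media, against 25.6% of all tested genes. By edgeR 0 passed, where 3 of 10 had an unadjusted p under 0.05, against 17.7% of all tested genes, and by DESeq2 0 passed. TECR, the enoyl reductase that ends each elongation cycle, was at 56.2, 63.3 and 71.2 CPM in RPMI plus B27 and 91.1, 77.9 and 83.1 CPM in DMEM plus fatty acids (0.40 ± 0.13, SE, edgeR adjusted p 0.172). The elongases ELOVL7, ELOVL4 and ELOVL2 had log2 fold changes of 0.64, 0.53 and -1.07 with edgeR adjusted p values of 0.244 to 0.331. The change of ELOVL2 rests on few counts, at 0.425 to 1.16 CPM in RPMI plus B27 and 0.215 to 0.504 CPM in DMEM plus fatty acids.

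Of 8 other desaturation genes 7 were tested, and 0 passed by edgeR. By DESeq2 2 passed, both lower, where 1218 of the 16107 tested genes did. An unadjusted p under 0.05 by edgeR was reached by 3 of the 7, against 17.7% of all tested genes. CYB5R3, a cytochrome b5 reductase that passes electrons to desaturases, was at 459.0 to 563.1 CPM in RPMI plus B27 and at 314.8 to 361.3 CPM in DMEM plus fatty acids (-0.63 ± 0.14, SE, edgeR adjusted p 0.0795, DESeq2 0.00108). FADS3, a relative of FADS1 and FADS2, was at 36.3, 26.3 and 21.5 CPM against 14.1, 16.6 and 17.9 CPM (-0.79 ± 0.22, SE, edgeR adjusted p 0.128, DESeq2 0.0224). DMEM replicate 1, the highest library for FADS1 and FADS2, was the lowest for FADS3. CYB5R4 and CYB5R2 had 0.43 and -0.50 (edgeR adjusted p 0.263 and 0.417). The separate mitochondrial fatty acid synthesis genes had a median of 0.14 over 6 genes and 0 at an unadjusted p under 0.05 by edgeR and 0 called by DESeq2, and the 4 with the smallest p (HSD17B8, MECR, MCAT and NDUFAB1) had log2 fold changes of -0.25 to 0.20.

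Regulators of the pathway included genes with the same library profile. SREBF1, which encodes SREBP-1, was at 57.0, 32.7 and 26.9 CPM in RPMI plus B27 and at 130.8, 36.5 and 23.3 CPM in DMEM plus fatty acids. INSIG1, a sterol-responsive SREBP inhibitor and itself an SREBP target, was at 47.6, 31.7 and 18.8 CPM and at 257.6, 46.8 and 15.7 CPM. SREBF2 was at 342.1 to 394.1 CPM in RPMI plus B27 and at 637.0, 491.5 and 341.1 CPM in DMEM plus fatty acids. All 3 were highest in DMEM replicate 1 and overlapped between media, with log2 fold changes of 0.71 ± 0.62, 1.70 ± 0.91 and 0.43 ± 0.22 (SE, edgeR adjusted p 0.597, 0.380 and 0.363). Without that library the values were -0.38, -0.07 and 0.20. With replicate 1 of both media left out they were 0.0, 0.3 and 0.26.

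INSIG2, the INSIG form that is not an SREBP target, was at 70.6, 56.7 and 36.7 CPM in RPMI plus B27 and at 31.5, 29.4 and 26.1 CPM in DMEM plus fatty acids, with no overlap (-0.92 ± 0.24, SE, edgeR adjusted p 0.113, 0.0364 when paired by replicate number, and 0.0127 by DESeq2). MLXIP, a glucose-sensing factor, had -0.48 ± 0.13 (SE, edgeR adjusted p 0.125, DESeq2 0.0319) and RXRA 0.33 ± 0.15 (0.308). MLXIPL, its relative in liver and fat, was at 0.1 to 0.264 CPM and was not tested. Of 15 regulators 14 were tested, and 3 did not overlap between media, against 25.6% of all tested genes. By edgeR 2 had an unadjusted p under 0.05, against 17.7%, and 0 passed. Under pairing 1 passed (INSIG2), against 4.78% of all tested genes. By DESeq2 2 did (INSIG2 and MLXIP), where 1218 of the 16107 tested genes passed.

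Sterol synthesis and uptake genes, also SREBP targets, are given here only for their library profile. Of 23 genes, 21 were highest in DMEM replicate 1, against 19.5% of all tested genes. In that library 20 were at least 2-fold above the mean of the other DMEM libraries, against 3.37%. Their median log2 fold change of 0.87 became 0.07 without that library. By edgeR 0 passed, and by DESeq2 1 did (MVK, adjusted p 0.0124). An unadjusted p under 0.05 by edgeR was reached by 3 of 23, against 17.7% of all tested genes. Those 3 were MVK, TM7SF2 and CYP51A1 (log2 fold changes 1.03, 0.70 and 1.25, edgeR adjusted p 0.116 to 0.278). Over 6 libraries the tested genes most like the mean log2 profile of the 10 members were ACAT2 (Pearson's r 0.997), PDPN (0.995), ZSCAN20 (0.992), DHCR7 (0.991) and FDPS (0.989). This ranking is a description that rests largely on 1 library, and 3 of the 5 are sterol synthesis genes. The members' own r with this mean was 0.893 to 0.982 for 8 genes, 0.322 for ELOVL5 and -0.336 for SCD5. Each member is part of that mean, which raises its r, so these values are not comparable with those of the other genes.

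Genes known to respond to fatty acids through PPARs had another order among the DMEM libraries. Of 10 listed 9 were tested, DMEM replicate 1 was the highest library for 0 of the 9, and their median level relative to the RPMI mean was -0.12 on the log2 scale in DMEM replicate 1, 0.60 in replicate 2 and 0.69 in replicate 3. For the 10 lipogenic genes these medians were 1.11, 0.22 and -0.26. CPT1A, the liver-type carnitine palmitoyltransferase of mitochondrial fatty acid entry, was at 26.0 to 34.9 CPM in RPMI plus B27 and at 62.3, 126.8 and 107.1 CPM in DMEM plus fatty acids, and it was the 1 gene of the 9 to pass (log2 fold change 1.75 ± 0.27, SE, edgeR adjusted p 0.0402). It passed in 8 of 13 other settings, including that without DMEM replicate 1 (edgeR adjusted p 0.0369), and did not when any of the other 5 libraries was left out (0.0801 to 0.123). PDK4, a kinase that inhibits pyruvate dehydrogenase, was at 3.75, 15.6 and 13.1 CPM in DMEM plus fatty acids, so replicate 1 lay in the RPMI range of 2.57 to 6.37 CPM (1.29 ± 0.55, SE, edgeR adjusted p 0.279). HADHA and ACADVL, which act in beta-oxidation, did not overlap between media (0.52 ± 0.11 and 0.48 ± 0.16, SE, edgeR adjusted p 0.0799 and 0.183), and DESeq2 called HADHA (0.000335). Of the 9 tested, 4 did not overlap in either direction, against 25.6% of all tested genes. Among these, CPT1A, HADHA and ACADVL were higher in DMEM and UCP3 was lower. UCP3 was at 0.808 to 1.51 CPM in RPMI plus B27 and at 0.689 to 0.736 CPM in DMEM plus fatty acids (-0.60 ± 0.35, SE, edgeR adjusted p 0.411).

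**Figure D4:**
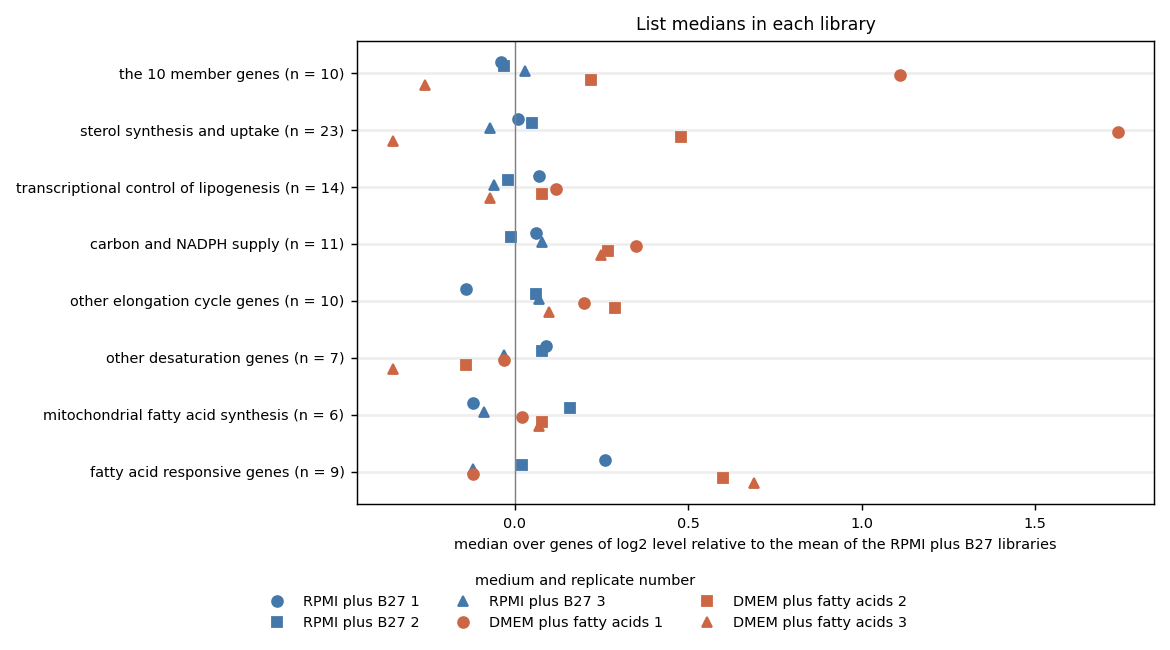
Median over the tested genes of each list of the log2 level relative to the mean of the RPMI plus B27 libraries, for each library (colour gives the medium, shape the replicate number). In DMEM plus fatty acids replicate 1 the 10 lipogenic genes sit at 1.11 and the fatty acid responsive genes at -0.12, and in replicate 3 at -0.26 and 0.69.

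Marker RNA of other cell types and library measures also differed between libraries. The libraries held 23232324 to 31035389 gene counts, and DMEM replicate 1 had the lowest total and, at 7.57%, the highest share of reads in no gene (5.44% to 7.35% in the others). All 12 cardiomyocyte markers were tested, and their summed level was 33064.8 to 42473.7 CPM in RPMI plus B27 and 22647.3 to 32554.2 CPM in DMEM plus fatty acids. The difference between these sums lay mainly in MYH7 and ACTC1, while 6 of the 12 had a log2 fold change above 0 and the median was -0.08. By edgeR 0 of the 12 passed with 3 at an unadjusted p under 0.05, and by DESeq2 3 did (MYH6 higher, MYH7 and ACTN2 lower). The 12 fibroblast and stromal markers summed to 4341.3 to 8415.4 CPM in RPMI plus B27 and to 758.5, 1958.7 and 1809.6 CPM in DMEM plus fatty acids, with 6 of 12 lower by edgeR and 9 by DESeq2, and DCN was at 0 counts in DMEM replicate 1. The 6 smooth muscle markers summed to 1603.5 to 2039.7 CPM against 356.6 to 1176.5 CPM, with 1 of 6 lower by edgeR and 2 by DESeq2. The 6 endothelial markers summed to 37.2 to 240.7 CPM against 115.1 to 463.6 CPM. Most of it was KDR (27.5, 143.0 and 238.9 CPM against 114.5, 399.6 and 463.2 CPM), with EMCN at 7.8 CPM in RPMI replicate 1. The other tested ones, TEK and EMCN, had log2 fold changes of -2.13 and -4.23, CDH5 was at 0 counts in all 3 DMEM libraries, and of the 3 tested 0 passed by edgeR with 2 at an unadjusted p under 0.05, and 2 (TEK and EMCN) by DESeq2. The part of fibroblast, smooth muscle, endothelial, hepatic and adipocyte cells and of depth in the lipogenic levels was not tested. Hepatic and foregut markers (12 genes, 7 tested) summed to 57.9 and 322.0 CPM in RPMI plus B27 replicates 2 and 3. The sum was less than 22.6 CPM in RPMI replicate 1, and 7.84, 22.6 and 52.7 CPM in DMEM plus fatty acids. It was lowest in DMEM replicate 1, where 7.49 CPM of it was APOA1. APOA1 also made up most of it in RPMI replicate 1 and DMEM replicate 2 (15.4 and 20.9 CPM). AFP and SERPINA1 were at 0 CPM in RPMI replicate 1 and at 0.0861 and 0 CPM in DMEM replicate 1. Of the 7 tested hepatic and foregut markers, 0 passed by edgeR, 0 had an unadjusted p under 0.05 and 0 passed by DESeq2. The 8 adipocyte markers summed to 5.32 to 6.23 CPM in RPMI plus B27 and to 18.3, 11.4 and 6.49 CPM in DMEM plus fatty acids, the order of 9 of the 10 lipogenic genes. Most of the DMEM sum was LPL, which the heart also expresses, at 2.52, 3.11 and 3.92 CPM against 16.6, 8.79 and 4.06 CPM (log2 fold change 1.62 ± 0.49, SE, edgeR adjusted p 0.160, called by DESeq2 with 0.0193). ADIPOQ, LEP, CIDEC and FABP4 were at 0 to 0.0431 CPM in all 6 libraries and PLIN1 at 0 to 0.264 CPM, and of the 3 tested markers 0 passed by edgeR with 1 at an unadjusted p under 0.05. Under pairing by replicate number 2 cardiomyocyte, 8 fibroblast, 2 smooth muscle, 3 hepatic and 1 endothelial marker were lower and 1 endothelial marker was higher. Over all tested genes 17.7% had an unadjusted p under 0.05 by edgeR and 1.36% passed, or 4.78% under pairing. DESeq2 called 1218 of the 16107 tested genes.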

How the data were processed

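Each library's deposited file listed whole-number read counts by gene symbol, neither normalized nor pooled. STAR, HTSeq and hg38 are named in the submitters' processing notes; their versions, the annotation and the strand setting are not given in the sources used here, so antisense and overlapping genes are uncertain. The labels' protocols name a stranded mRNA library kit. Summary rows that name no gene held 12.8% to 15.6% of each library and were left out.

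Counts were tested across all genes with edgeR 4.0.16 in R 4.3.3 (filterByExpr defaults, minimum count 10 and minimum total count 15; TMM; quasi-likelihood test; Benjamini-Hochberg, threshold 0.05) over 6 libraries without covariates. Each SE is the log2 fold change divided by the square root of F. The fitting code was tested on simulated data. DESeq2 1.42.0, 2 other scalings, 2 other filters, each library left out and the replicate block were the alternatives. Exact two-sided permutation tests compared shares, and a 3-pair sign-flip test cannot give a p under 0.25.

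Replicate numbers come from the sample titles. Deviations from the mean of each medium correlated across genes at 0.31, 0.43 and 0.37 for equal numbers and at -0.24 to -0.14 for others. Such deviations sum to 0 within a medium, so positive values for equal numbers push the others below 0. On the positive values alone, equal numbers were taken as pairs in the replicate block, the ratios within replicate numbers and the sign-flip test. The main edgeR test, the DESeq2 test and the permutation tests were unpaired. List medians by library use log2(CPM + 0.5), and a count of 0 was read as allowing 3 counts. GENCODE release 29 and RefSeq supplied loci and start sites.

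The 10 genes and all lists were chosen with earlier results of these data known. Named genes were the 10 members, up to 4 genes with the smallest p of each other pathway list, SREBF1, MLXIPL and INSIG1, and the 5 genes most like the members' mean log2 CPM (prior count 2). SLC25A1, THRSP, ACSF3, MID1IP1, UCP3 and the cell type markers were named after their values were seen. One gene that this rule names is not reported here.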

Additional observations from a re-analysis of the deposited data

How the results depend on the processing

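None of the 10 lipogenic genes had an adjusted p under 0.05 in any of 13 other settings (130 values, smallest 0.0681), so these settings changed no call among them. The count of called genes over the whole table was less stable, at 219 as tested, 1218 with DESeq2, 539 without the filter, 119 with at least 10 counts in every library, 37 without replicate 1 of both media (chosen after seeing the data), and 3 to 131 when 1 library was left out (30, 4 and 131 without RPMI plus B27 replicates 1, 2 and 3, and 11, 12 and 3 without those of DMEM plus fatty acids). With the replicate block it was 770, and among the pathway genes named here the block added calls for MLYCD and INSIG2 and removed none, while DESeq2 added those and CYB5R3, FADS3, MLXIP, MVK and HADHA. Direction was less firm than the call. Leaving out 1 library moved the log2 fold change between -0.17 and 0.49 for ACLY, -0.27 and 1.47 for SCD, -0.04 and 0.99 for FADS2, -0.80 and 0.09 for SCD5, -0.38 and 1.11 for SREBF1 and -0.07 and 2.22 for INSIG1, the sign turning without DMEM plus fatty acids replicate 1 for all but SCD5, which turned without RPMI plus B27 replicate 2. Without replicate 1 of both media ACLY had -0.20, SCD -0.04, FADS2 -0.10 and ELOVL6 -0.04, while SREBF1 had 0.0 and INSIG1 0.3. The difference in share ran from -1.82 to 0.0917 percentage points for SCD5, -1.44 to 0.925 for FADS1, 7.06 to 12.6 for ELOVL6 and -10.1 to -2.32 for ACACB, and the sign-flip test over the replicate pairs gave p values of 0.5, 1.0, 0.25 and 0.5 by exact enumeration. The cause of these changes was not tested. The lowest level among the 10 genes was 6.98 CPM, against a limit of at most 0.129 CPM for a count of 0, and precision rests on 3 libraries a medium.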
